A study of Caenorhabditis elegans with 9 samples.

Results

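Endoderm specification and gut differentiation were followed in Caenorhabditis elegans embryos through 9 genes taken from a list of names. The genes were chosen with earlier results of these data known. They are the early endoderm GATA factor genes end-1 (F58E10.2) and end-3 (F58E10.5), the intestinal GATA factor genes elt-2 (C33D3.1) and elt-7 (C18G1.2), and the gut genes ges-1 (R12A1.4), ifb-2 (F10C1.7), act-5 (T25C8.2), pept-1 (K04E7.2) and erm-1 (C01G8.5). They are 9 of the 20389 genes in the count table, and all 9 passed the filter on low counts that left 12643 genes for testing. Poly-A RNA of mixed embryos was sequenced in 3 libraries per strain for 3 strains. DPY-27(EQ)::GFP (KB01) and DPY-27::GFP (MK14) carry a single-copy transgene on chromosome II that makes a GFP-tagged DPY-27, the SMC subunit of the dosage compensation condensin, from a heat-shock promoter, and both strains keep their endogenous dpy-27. The EQ version has a mutated ATPase domain. Wild type is N2. Parents of every strain, wild type included, received a heat shock at 35°C for 30 min with 2 h of recovery before their embryos were collected, so the heat shock itself does not separate the strains. The collections were not staged, and the whole embryo was extracted.

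In the worm, the intestine comes entirely from the E blastomere of the early embryo. Maternal SKN-1 and its targets MED-1 and MED-2, together with a Wnt signal acting through POP-1, switch on end-3 and end-1, which are transcribed briefly in the E lineage. Their products activate elt-7 and elt-2, and ELT-2 then sustains its own gene and drives intestinal genes for the rest of life. The gut genes used here encode parts of that differentiated cell: a gut esterase (ges-1), an intermediate filament of the terminal web (ifb-2), the actin of the microvilli (act-5), a peptide transporter (pept-1) and a membrane-to-cytoskeleton linker of the lumen (erm-1), which other epithelia also express. In RNA from whole embryos, fewer gut cells and less RNA per gut cell cannot be told apart.

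On the WS220 genome, 4 of the genes lie on chromosome V: end-1 at V:13985121-13986985, end-3 at V:14014685-14015961, elt-7 at V:4770656-4773077 and ges-1 at V:1427649-1432139. On the X chromosome, which condensin DC binds, are elt-2 at X:10481176-10483520 and pept-1 at X:6456649-6461833. The remaining genes are ifb-2 at II:5750167-5754121, act-5 at III:13604237-13605967 and erm-1 at I:5284059-5291608. These are the spans of whole genes, exons and introns together. In a newer annotation than WS220, only end-3 shares exon bases with another gene, 3 bases with F58E10.6 on the opposite strand. Overlaps in the annotation used for counting were not examined. act-5 belongs to the actin family, and how reads that match several actin genes were treated could affect its count.

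Reads counted on genes ranged from 7573682 to 21281027 in DPY-27(EQ)::GFP, from 7062182 to 9582838 in DPY-27::GFP and from 17107945 to 23536013 in wild type. Rows that name no gene held 12.8% to 21.2%, 12.6% to 13.5% and 55.2% to 58.2% of the reads in the same strains. Library names begin with LAS for wild type and DPY-27(EQ)::GFP replicate 3 and with SEA for the other libraries, and what the prefix marks is not given in the sources used here. Nothing in the labels says whether the libraries of a strain came from separate cultures, so p-values measure the spread between these libraries only.

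Levels per gene length, as the deposited TPM values (reads scaled by gene length and by the total of the library), put the 9 genes in an order that was similar in the 3 strains. act-5 was the most abundant, at 518 ± 105 TPM in DPY-27(EQ)::GFP, 525 ± 154 in DPY-27::GFP and 336 ± 30.2 in wild type (SD, n = 3 each). ifb-2 averaged 236 ± 31.6, 248 ± 80.7 and 137 ± 19.7 TPM in the same strains, and erm-1 averaged 183 ± 12.1, 184 ± 27.1 and 146 ± 9.58 TPM. These structural genes of the lumen stood well above the GATA factor genes. pept-1 averaged 42.7 ± 2.21, 39.5 ± 11.7 and 23.8 ± 3.25 TPM, and elt-7 averaged 25.2 ± 1.78, 23.6 ± 5.18 and 26.3 ± 1.88 TPM. elt-2 averaged 23.1 ± 1.99 TPM in DPY-27(EQ)::GFP, 25.2 ± 5.94 in DPY-27::GFP and 16.7 ± 0.662 in wild type. Both intestinal GATA genes lay below pept-1 in DPY-27(EQ)::GFP with no overlap, and in wild type elt-2 did so as well. end-1 averaged 10.4 ± 3.11, 13.1 ± 5.62 and 18.7 ± 2.99 TPM, ges-1 averaged 10.9 ± 0.793, 9.87 ± 0.716 and 6.81 ± 1.41 TPM, and end-3 was lowest at 2.67 ± 1.29, 2.74 ± 1.10 and 3.39 ± 1.08 TPM. Not every neighbour in this order was separated. The ranges over libraries overlapped for elt-7 and elt-2 and for ges-1 and end-1 in DPY-27(EQ)::GFP. In DPY-27::GFP they overlapped for ifb-2 and erm-1, for pept-1 and elt-2, for elt-2 and elt-7 and for end-1 and ges-1. In wild type they overlapped for erm-1 and ifb-2, for elt-7 and pept-1, for pept-1 and end-1 and for end-1 and elt-2. end-1 thus ranked above elt-2 in wild type and below it in both transgenic strains.

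**Figure D1:**
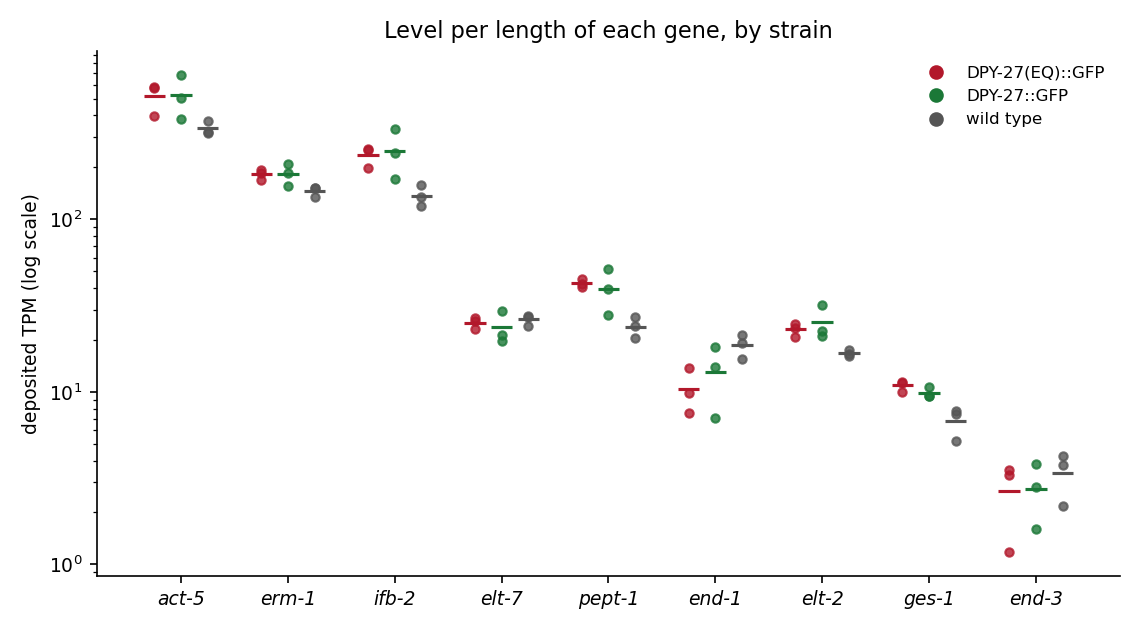
Deposited TPM of each gene on a log axis, with points for single libraries and short lines for strain means, in DPY-27(EQ)::GFP, DPY-27::GFP and wild type (3 libraries each). act-5 is highest, at 518, 525 and 336 TPM, and end-3 lowest, at 2.67, 2.74 and 3.39 TPM.

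The genes of endoderm specification had lower mean levels in both transgenic strains than in wild type, and neither passed the test. Levels within a gene are given as CPM, the reads of the gene scaled to library size with edgeR's TMM factors. end-1 had 3.55, 5.96 and 5.13 CPM in DPY-27(EQ)::GFP replicates 1 to 3, 5.77, 3.22 and 8.97 CPM in DPY-27::GFP replicates 1 to 3, and 9.41, 8.22 and 11.8 CPM in wild-type replicates 1 to 3. Every DPY-27(EQ)::GFP library lay below every wild-type library, whereas DPY-27::GFP replicate 3 lay inside the wild-type range. The log2 fold change of end-1 was -0.996 (SE 0.328) in DPY-27(EQ)::GFP over wild type, with an adjusted p of 0.0850 from edgeR's quasi-likelihood test, and -0.74 (SE 0.331, adjusted p 0.166) in DPY-27::GFP against wild type. In DPY-27(EQ)::GFP end-1 was called lower by DESeq2 (adjusted p 0.0341). Leaving out DPY-27::GFP replicate 3 gave a log2 fold change of -1.12 in DPY-27::GFP (adjusted p 0.0215), and leaving out replicate 2 gave -0.40 (adjusted p 0.385). With library name prefix in the edgeR fit, the adjusted p was 0.423 in DPY-27(EQ)::GFP and 0.774 in DPY-27::GFP. Of 15 alternatives, 2 called end-1 in DPY-27(EQ)::GFP and 1 did in DPY-27::GFP. These values rest on 27 to 107 reads per library in DPY-27(EQ)::GFP, 32 to 62 reads in DPY-27::GFP, and 135 to 250 reads in wild type.

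end-3, which is activated just before end-1, was near the limit of what these libraries could resolve. It had 7, 19 and 47 reads in DPY-27(EQ)::GFP, 13, 10 and 18 reads in DPY-27::GFP and 68, 26 and 59 reads in wild type. As CPM these were 0.921, 1.99 and 2.25 in DPY-27(EQ)::GFP, 1.56, 1.005 and 2.60 in DPY-27::GFP and 2.91, 1.58 and 2.79 in wild type. The 3 strains overlapped, and the log2 fold changes of -0.44 (SE 0.404, adjusted p 0.504) in DPY-27(EQ)::GFP and -0.54 (SE 0.427, adjusted p 0.431) in DPY-27::GFP against wild type were about as large as their errors. A difference of this size in end-3 was not detectable in these libraries. Its direction in DPY-27::GFP also turned when library name prefix was added to the fit (0.062, adjusted p 0.991).

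The intestinal GATA genes differed far less between strains. elt-2, on the X chromosome, had 30.8, 33.1 and 33.6 CPM in DPY-27(EQ)::GFP, 39.1, 30.1 and 31.8 CPM in DPY-27::GFP and 28.2, 28.4 and 27.7 CPM in wild type. All transgenic libraries lay above all wild-type libraries, but by little, with log2 fold changes of 0.21 (SE 0.141, adjusted p 0.359) in DPY-27(EQ)::GFP and 0.26 (SE 0.142, adjusted p 0.251) in DPY-27::GFP. elt-7 had 15.3, 15.5 and 16.8 CPM in DPY-27(EQ)::GFP, 16.6, 12.5 and 14.5 CPM in DPY-27::GFP and 16.3, 15.5 and 17.6 CPM in wild type. These ranges overlapped. The log2 fold changes of elt-7 were -0.05 (SE 0.164, adjusted p 0.869) in DPY-27(EQ)::GFP and -0.18 (SE 0.166, adjusted p 0.500) in DPY-27::GFP, and the sign in DPY-27(EQ)::GFP was positive with upper quartile scaling (0.030), with library name prefix in the fit (0.034) and without wild-type replicate 3 (0.020).

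Within a library, elt-2 reads were more numerous relative to elt-7 reads in the transgenic strains. There were 2.00 to 2.14 elt-2 reads for each elt-7 read in DPY-27(EQ)::GFP, 2.2 to 2.42 in DPY-27::GFP, against 1.58 to 1.84 in wild type, 3 ranges that did not overlap. Against end-1 the spread was wider, with 5.54 to 8.67 elt-2 reads for each end-1 read in DPY-27(EQ)::GFP, 3.55 to 9.38 in DPY-27::GFP, against 2.34 to 3.46 in wild type. Both ratios were chosen after their values could be seen and were not tested.

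Of the 5 gut genes, each had a higher mean level in both transgenic strains than in wild type, and pept-1 in DPY-27(EQ)::GFP was the one that passed the test. pept-1, the intestinal transporter of small peptides, had 118, 102 and 120 CPM in DPY-27(EQ)::GFP, 92.1, 133 and 79.7 CPM in DPY-27::GFP and 66.3, 77.3 and 60.4 CPM in wild type. Every transgenic library was above every wild-type library. pept-1 rose in DPY-27(EQ)::GFP by a log2 fold change of 0.74 (SE 0.182), 1.67-fold, with an adjusted p of 0.0342 from edgeR, and its log2 fold change in DPY-27::GFP was 0.58 (SE 0.183, adjusted p 0.0608). The call in DPY-27(EQ)::GFP was lost when any 1 of the 6 libraries compared was left out (log2 fold changes of 0.68 to 0.84, adjusted p 0.0546 to 0.186) and with library name prefix in the fit (0.82, adjusted p 0.218). Over all 15 alternatives its adjusted p ran from 0.0013 to 0.218.

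ifb-2, an intermediate filament of the terminal web beneath the gut lumen, behaved much like pept-1. It had 377, 264 and 356 CPM in DPY-27(EQ)::GFP, 295, 462 and 259 CPM in DPY-27::GFP and 195, 248 and 193 CPM in wild type. Again every transgenic library lay above every wild-type library, although DPY-27(EQ)::GFP replicate 2 and DPY-27::GFP replicate 3 were close to wild-type replicate 2. The log2 fold changes of ifb-2 were 0.65 (SE 0.215, adjusted p 0.0866) in DPY-27(EQ)::GFP and 0.68 (SE 0.215, adjusted p 0.0639) in DPY-27::GFP, short of the threshold in edgeR and past it in DESeq2 (adjusted p 0.0450 and 0.0235). The value in DPY-27::GFP was 0.41 (adjusted p 0.140) once replicate 2 was left out, and 0.88 (adjusted p 0.0145) once replicate 3 was.

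act-5, which builds the microvilli, had 573, 373 and 584 CPM in DPY-27(EQ)::GFP, 433, 679 and 390 CPM in DPY-27::GFP and 357, 448 and 386 CPM in wild type. The strains overlapped, since DPY-27(EQ)::GFP replicate 2 and DPY-27::GFP replicates 1 and 3 were within the wild-type range. Log2 fold changes of act-5 were 0.36 (SE 0.222, adjusted p 0.316) in DPY-27(EQ)::GFP and 0.34 (SE 0.223, adjusted p 0.346) in DPY-27::GFP, the second falling to 0.079 without DPY-27::GFP replicate 2. ges-1, the gut esterase long used as a marker of intestinal fate, had 17.5, 15.7 and 14.9 CPM in DPY-27(EQ)::GFP, 14.1, 14.1 and 14.8 CPM in DPY-27::GFP and 12.4, 13.8 and 9.28 CPM in wild type. Its groups did not overlap, but the lowest transgenic library was only slightly above the highest wild-type library, and the log2 fold changes were 0.44 (SE 0.183, adjusted p 0.153) in DPY-27(EQ)::GFP and 0.28 (SE 0.185, adjusted p 0.350) in DPY-27::GFP. erm-1 had 402, 332 and 397 CPM in DPY-27(EQ)::GFP, 377, 376 and 346 CPM in DPY-27::GFP and 316, 339 and 312 CPM in wild type. DPY-27(EQ)::GFP replicate 2 was within the wild-type range. erm-1 showed the smallest difference of the gut genes, 0.23 (SE 0.121, adjusted p 0.253) in DPY-27(EQ)::GFP and 0.18 (SE 0.121, adjusted p 0.344) in DPY-27::GFP.

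**Figure D2:**
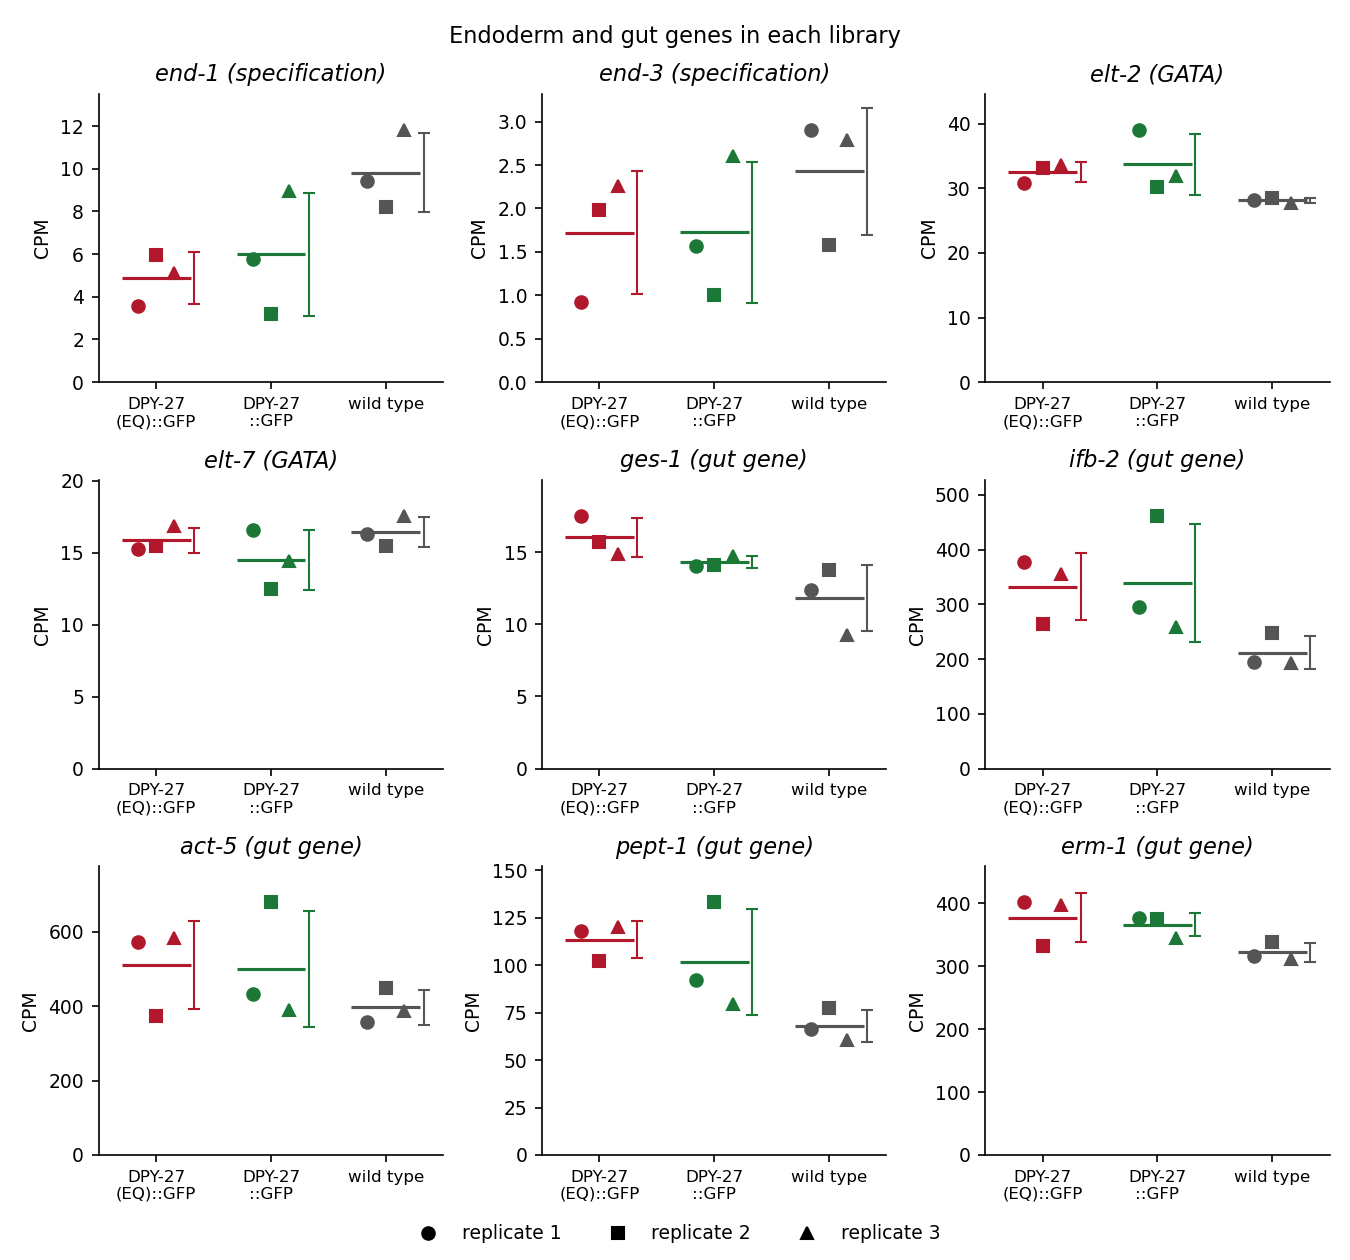
CPM of each gene in each library, with DPY-27(EQ)::GFP, DPY-27::GFP and wild type from left to right; symbols mark replicates, lines the strain mean and bars 1 SD (n = 3). For pept-1 the transgenic libraries lie between 79.7 and 133 CPM, above the wild-type libraries at 60.4 to 77.3 CPM, while for elt-7 the strains overlap.

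Counted together, 1 of the 9 genes (pept-1) was called higher, and 0 were called lower, when DPY-27(EQ)::GFP was set against wild type. There 1.82% of all tested genes were called higher and 5.08% lower. At an unadjusted p under 0.05 were 4 of the 9 (end-1, ges-1, ifb-2 and pept-1), against 26.7% of all tested genes, and DESeq2 called 3 (end-1, ifb-2 and pept-1), against 13.6%. Every library was above wild type for 4 genes (elt-2, ges-1, ifb-2 and pept-1) and below it for end-1, patterns that 19.3% and 22.4% of all tested genes showed. The median log2 fold change was 0.23 over the 9 genes and -0.031 over all tested genes. In DPY-27::GFP against wild type, edgeR called 0 of the 9 genes, with 3 (end-1, ifb-2 and pept-1) at an unadjusted p under 0.05, and DESeq2 called 2 (ifb-2 and pept-1). Over all tested genes 28.4% were at an unadjusted p under 0.05 and DESeq2 called 17.3%, so these member counts are near what the whole table gave. By edgeR 3.42% of all tested genes were called higher and 7.45% lower. Every DPY-27::GFP library was above wild type for 5 genes (elt-2, ges-1, ifb-2, pept-1 and erm-1) and below it for 0, against 10.9% and 18% of all tested genes. The median log2 fold change was 0.26 over the 9 genes and -0.0095 over all tested genes. Both comparisons share the wild-type libraries and are not independent of each other.

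**Figure D3:**
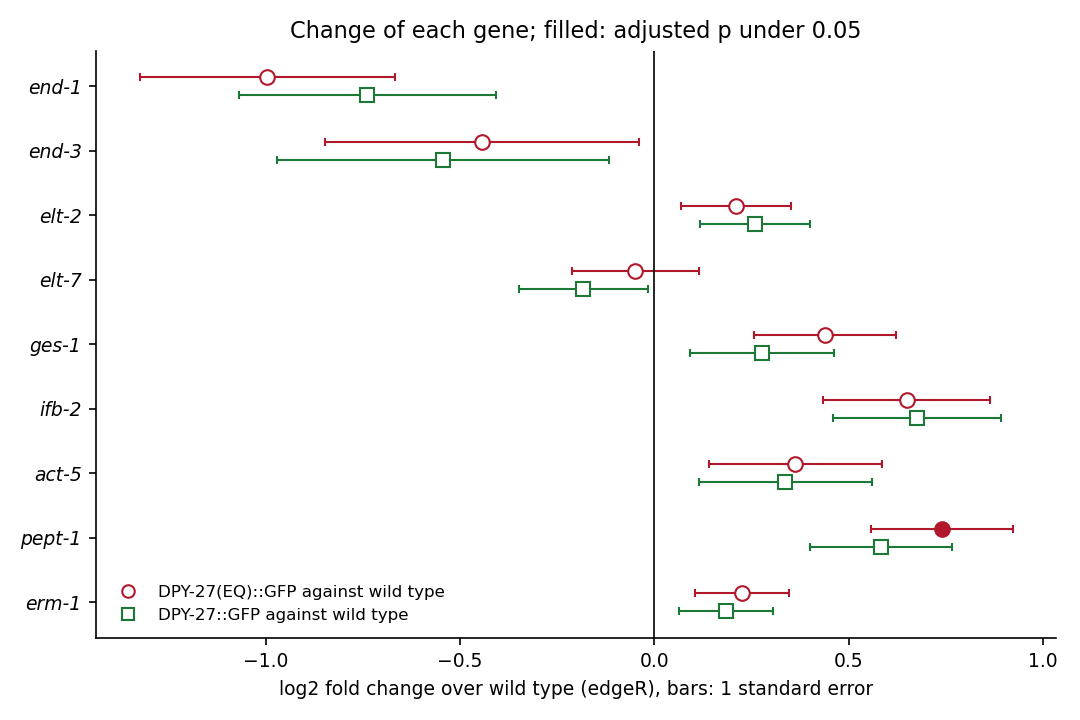
Log2 fold change of each gene over wild type from edgeR, with bars of 1 standard error; circles are DPY-27(EQ)::GFP and squares DPY-27::GFP, filled where the adjusted p was under 0.05. end-1 and end-3 lie left of 0 (-0.996 to -0.44), the 5 gut genes right of it (0.18 to 0.74), and pept-1 in DPY-27(EQ)::GFP is the one filled point.

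The ATPase mutation made no detectable difference to these genes. Between the 2 transgenic strains, edgeR, DESeq2 and limma on TPM each called 0 of the 9, and 0 were at an unadjusted p under 0.05 in edgeR. Over all tested genes 0% were called, with 116 of 12643 genes at an unadjusted p under 0.05. That is fewer than this threshold gives where nothing differs, so edgeR's p-values were conservative in this comparison. Log2 fold changes of DPY-27(EQ)::GFP over DPY-27::GFP ran from -0.26 (SE 0.346) for end-1 to 0.16 (SE 0.187) for ges-1. The groups did not overlap for ges-1 alone, against 4.03% of all tested genes. The standard errors of 0.12 to 0.45 leave room for differences of the size seen against wild type in end-1 and end-3, so this does not show that the strains were alike.

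For every gene except ges-1 and erm-1, the libraries of DPY-27::GFP spanned a wider range of CPM than the strain means lay apart. In DPY-27::GFP, replicate 2 held the highest ifb-2, act-5 and pept-1 and the lowest end-1, end-3, elt-2 and elt-7, while replicate 3 held the lowest ifb-2, act-5 and pept-1 and the highest end-1 and end-3. The highest library exceeded the lowest by 2.79 times for end-1, 1.78 times for ifb-2 and 1.74 times for act-5 in that strain, but by 1.30 times for elt-2, 1.09 times for erm-1 and 1.05 times for ges-1. In DPY-27(EQ)::GFP, replicate 1 held the lowest end-1 and end-3, and replicate 2 held the lowest ifb-2, act-5, pept-1 and erm-1. In wild type, replicate 2 had the lowest end-1 and end-3 and the highest of each of the 5 gut genes.

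A score of specification against differentiation puts this in 1 value per library: the mean log2 CPM of end-1 and end-3 minus the mean log2 CPM of the 5 gut genes. It was -6.49, -5.27 and -5.59 in DPY-27(EQ)::GFP replicates 1 to 3, -5.51, -6.56 and -4.73 in DPY-27::GFP and -4.39, -5.12 and -4.16 in wild type. Every DPY-27(EQ)::GFP library was below every wild-type library, by a narrow margin at its upper end, and DPY-27::GFP replicate 3 was inside the wild-type range. Strain means were -5.79 ± 0.631, -5.60 ± 0.920 and -4.55 ± 0.504 (SD, n = 3 each). Since the score is made of the genes themselves, it was not tested. The mean log2 CPM of elt-2 and elt-7 was nearly level in the same libraries, at 4.45 to 4.58 in DPY-27(EQ)::GFP, 4.29 to 4.68 in DPY-27::GFP, against 4.40 to 4.47 in wild type.

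Marker genes of embryo age moved with this score. A stage index was computed as the mean log2 CPM of 12 late embryo markers (mostly genes of the cuticle and late epidermis such as dpy-3 and sqt-3, with the hatching protease gene hch-1 and the muscle attachment gene unc-112) minus that of 16 maternal and early embryo markers (such as pie-1 and oma-2). The index was 2.63, 2.11 and 2.26 in DPY-27(EQ)::GFP, 1.99, 2.90 and 1.81 in DPY-27::GFP and 1.84, 2.32 and 1.15 in wild type. Within each of the 3 strains, the library with the highest index had the lowest score and the library with the lowest index had the highest score. The part of embryo age in the differences between strains was not tested.

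**Figure D4:**
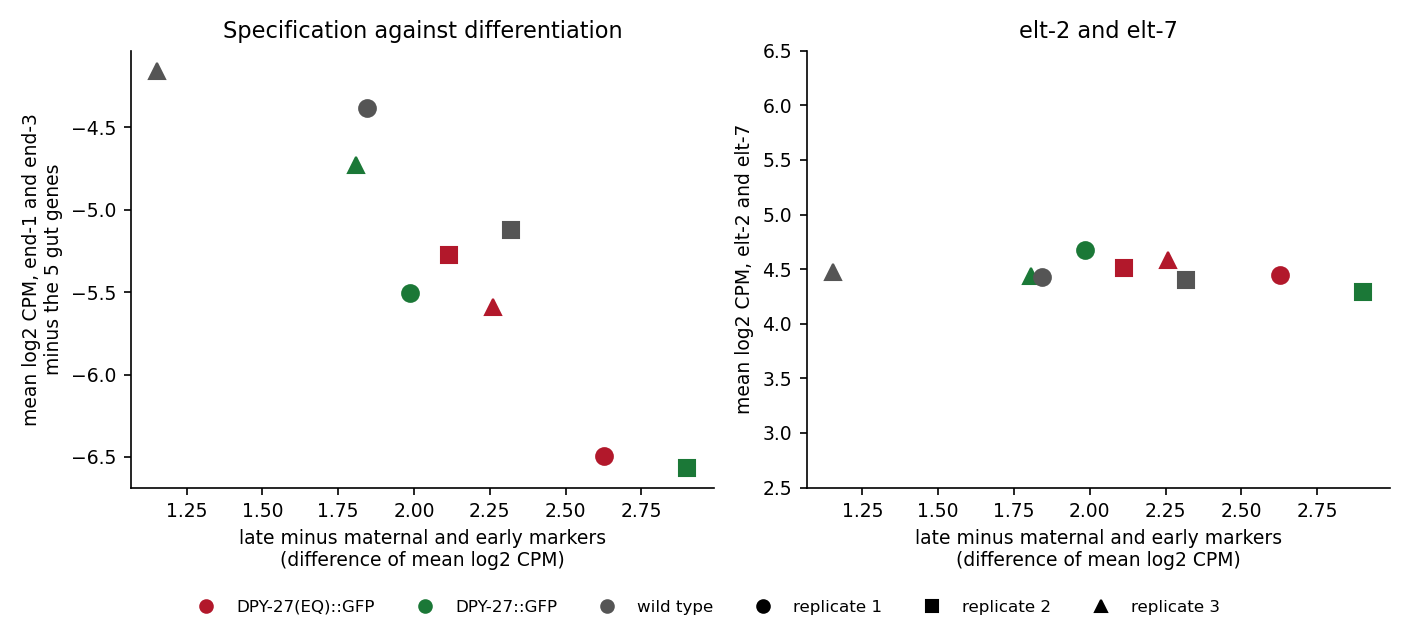
Specification-minus-differentiation score (left) and mean log2 CPM of elt-2 and elt-7 (right) of each library against the stage index, late minus maternal and early markers; colours are strains and symbols replicates. The score is highest (-4.16) at the lowest index (1.15) and lowest (-6.56) at the highest index (2.90), while elt-2 and elt-7 stay between 4.29 and 4.68.

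The index differed mainly through its maternal and early markers. Of the 16 maternal and early markers, 4 fell and 0 rose in each transgenic strain against wild type, with median log2 fold changes of -0.89 in DPY-27(EQ)::GFP and -0.86 in DPY-27::GFP and summed levels of 1076 to 1457 CPM, 828 to 2031 CPM and 1547 to 2708 CPM in DPY-27(EQ)::GFP, DPY-27::GFP and wild type. Among them puf-3, an RNA-binding protein gene of the germ line, fell by 0.97 on the log2 scale in DPY-27(EQ)::GFP (adjusted p 0.0334) and by 1.19 in DPY-27::GFP (adjusted p 0.0121), and pie-1, a maternal factor of the germ lineage, fell by 1.204 and 1.13 (adjusted p 0.0385 in both). cbd-1, an eggshell gene, fell by 1.15 in DPY-27(EQ)::GFP (adjusted p 0.0337), and oma-2, of the oocyte, fell by 1.25 in DPY-27::GFP (adjusted p 0.0279). Of all tested genes, 5.08% were called lower in DPY-27(EQ)::GFP and 7.45% in DPY-27::GFP. Of the late markers 0 rose. Of the 12, 2 fell in DPY-27(EQ)::GFP (dpy-3 and dpy-8) and 3 in DPY-27::GFP (dpy-3, hch-1 and sqt-3), with medians of -0.15 in both. unc-112 went the other way, above wild type in every transgenic library, at 0.36 in DPY-27(EQ)::GFP (adjusted p 0.0855) and 0.39 in DPY-27::GFP (adjusted p 0.0565). Early zygotic genes of the mesoderm and neighbouring lineages, 5 of 6 tested, gave 0 calls in each strain and medians of -0.38 and -0.19.

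Genes around the 9 in the same pathway were taken as 3 further lists of 36 genes, of which 32 could be tested. Of the inputs to endoderm specification, 6 of 8 were tested and 0 called in either strain, with medians of -0.15 in DPY-27(EQ)::GFP and -0.060 in DPY-27::GFP. Of these, skn-1, the maternal activator, averaged 274, 267 and 284 CPM in DPY-27(EQ)::GFP, DPY-27::GFP and wild type, and pop-1, the Wnt effector, averaged 260, 316 and 290 CPM. med-1 and med-2 had too few reads to test, and med-1 had none in 4 of the 9 libraries. lit-1, a kinase of the Wnt pathway, was below wild type in every DPY-27::GFP library (log2 fold change -0.36, p 0.0136, adjusted p 0.0825 by edgeR) and overlapped wild type in DPY-27(EQ)::GFP (-0.13, adjusted p 0.523).

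Genes of the gut lumen and brush border mostly went the way of ifb-2 and pept-1. This list, like the others, was chosen with earlier results of these data known. In DPY-27(EQ)::GFP 4 of 13 rose and 0 fell, with a median log2 fold change of 0.41, and in DPY-27::GFP 5 of 13 rose and 0 fell, with a median of 0.45. Of all tested genes, 1.82% and 3.42% were called higher in the same order. vha-6, the intestinal subunit of the proton pump, averaged 164 CPM in both transgenic strains and 89.8 CPM in wild type and rose by 0.87 in each (adjusted p 0.0406 in DPY-27(EQ)::GFP and 0.0324 in DPY-27::GFP). Partners of ifb-2 among the intestinal intermediate filaments rose as well: ifd-2 by 0.68 and 0.64 (adjusted p 0.0354 and 0.0340 in the same order), and ifp-1 by 0.68 and 0.66 (adjusted p 0.0419 and 0.0367). ifd-1 rose by 0.88 in DPY-27(EQ)::GFP (adjusted p 0.0332) and 0.81 in DPY-27::GFP (adjusted p 0.0353), where its groups overlapped. ifc-2 rose by 1.07 in DPY-27::GFP (adjusted p 0.0453) and was at 0.88 in DPY-27(EQ)::GFP without being called (adjusted p 0.0984 by edgeR). The exceptions in direction were glo-1, a Rab gene of the gut granules, at -0.64 and -0.48 (adjusted p 0.106 and 0.190), and glo-3 in DPY-27(EQ)::GFP at -0.024. The paper describes upregulation of the X chromosome in embryos that express either transgene. pept-1 lies on the X chromosome, and the chromosomes of the lumen genes were not compared here. The part of X linkage in these calls was not tested.

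Among gut enzymes and metal-handling genes, 13 of 15 were tested, and 2 rose and 0 fell in each strain. These were the cathepsin B protease genes cpr-1 and cpr-4. cpr-1 averaged 11.7 CPM in DPY-27(EQ)::GFP, 16.4 CPM in DPY-27::GFP and 3.26 CPM in wild type, a log2 fold change of 1.89 (adjusted p 0.0223) in DPY-27(EQ)::GFP and 2.35 (adjusted p 0.0063) in DPY-27::GFP. cpr-4 averaged 8.05, 8.72 and 2.84 CPM, with log2 fold changes of 1.51 (adjusted p 0.0208) and 1.63 (adjusted p 0.0124). The medians of this list were 0.49 and 0.40. In each strain 5 of the 13 had negative log2 fold changes, namely mtl-1, mtl-2, spl-1, ftn-1 and cdf-2, with 0 called. mtl-1 was at -2.39 and -2.12 with overlapping groups and a wide wild-type spread (25.6 ± 36.2 CPM). ftn-1 was at -0.74 in both (adjusted p 0.128 and 0.118). cdf-2 lay below wild type in every transgenic library, at -0.18 and -0.44 (adjusted p 0.521 and 0.116). Over the 3 lists, 6 of 32 rose in DPY-27(EQ)::GFP and 7 in DPY-27::GFP, with 0 lower in both, medians of 0.38 and 0.33, and 0 called between the transgenic strains. Of all tested genes, 1.82% and 3.42% were called higher in the same order, and 5.08% and 7.45% lower. The counts over the 3 lists depended on which libraries were used. They were 0 to 2 in DPY-27(EQ)::GFP and 1 to 12 in DPY-27::GFP when 1 library was left out, the 12, of 34 then tested, being without DPY-27::GFP replicate 3. The shares of all tested genes above belong to the fit with all 9 libraries. Those with 1 library left out are not given here, so these counts cannot be set against them.

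**Figure D5:**
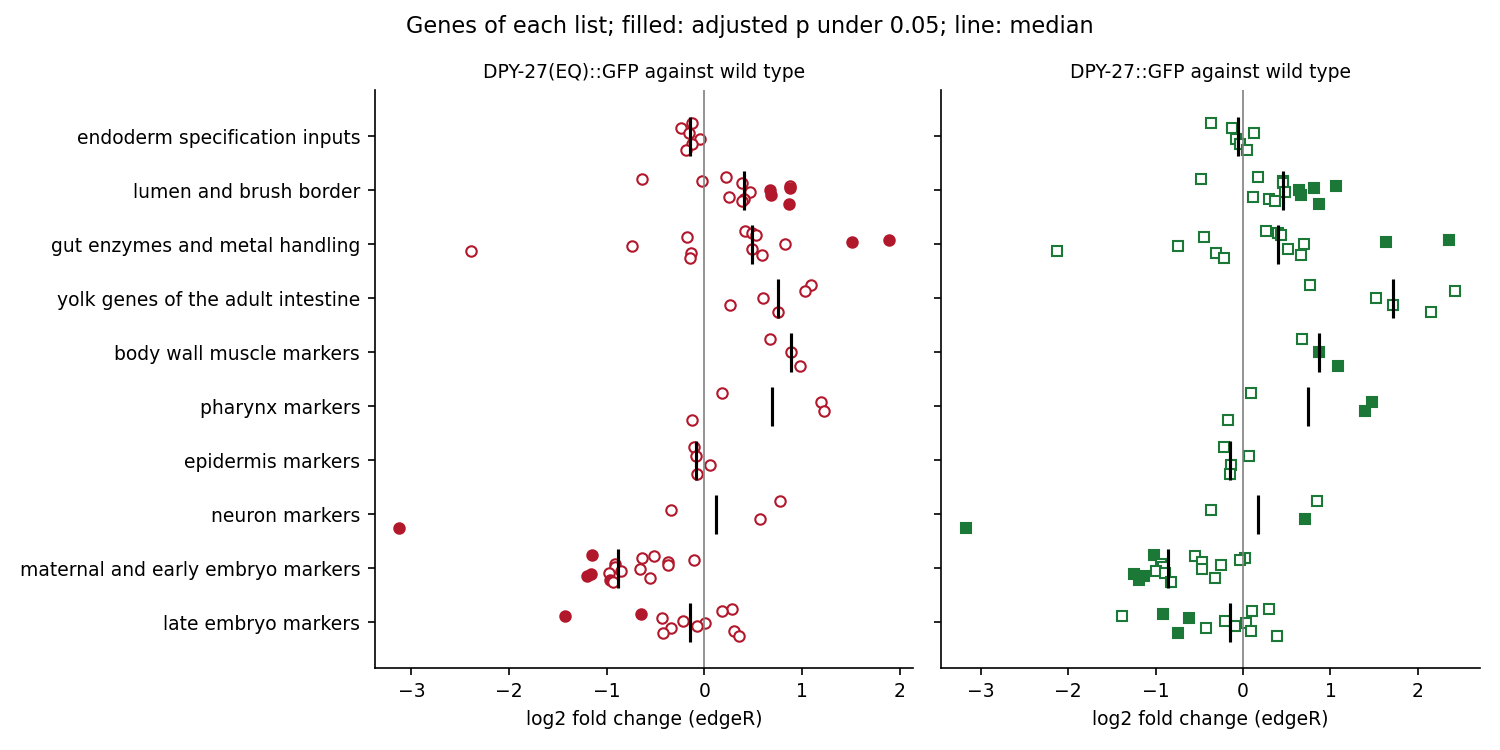
Log2 fold change over wild type of the tested genes of each list in DPY-27(EQ)::GFP (left) and DPY-27::GFP (right), filled where the adjusted p was under 0.05, with black lines at list medians. Lumen and brush border genes have medians of 0.41 and 0.45, and maternal and early markers of -0.89 and -0.86.

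The adult intestine makes yolk, and its genes were barely present. The 6 vit genes summed to 7.64 to 28.4 CPM in DPY-27(EQ)::GFP, 16.3 to 37.8 CPM in DPY-27::GFP, against 3.98 to 15.2 CPM in wild type. Of 5 tested, 0 were called, with medians of 0.75 and 1.71 against wild type, and their close sequence similarity makes the split of reads among vit genes uncertain. Markers of other differentiated tissues also moved. Body wall muscle markers summed to 4653 to 7440 CPM in DPY-27(EQ)::GFP, 4161 to 9377 CPM in DPY-27::GFP, against 2893 to 3726 CPM in wild type. Of 3 tested, 0 were called in DPY-27(EQ)::GFP and 2 rose in DPY-27::GFP, unc-54 by 1.08 (adjusted p 0.0301) and unc-15 by 0.87 (adjusted p 0.0477). In DPY-27(EQ)::GFP unc-54 and unc-15 were at 0.97 and 0.89 (adjusted p 0.0545 and 0.0566 by edgeR), also above wild type in every library. By edgeR 1.82% of all tested genes were called higher in DPY-27(EQ)::GFP and 3.42% in DPY-27::GFP. hlh-1 had 0 reads in all 9 libraries of the table. Whether this reflects its expression or how its row was counted was not tested. Pharynx markers summed to 885 to 1408 CPM, 790 to 1902 CPM and 643 to 730 CPM in DPY-27(EQ)::GFP, DPY-27::GFP and wild type. With 0 of 4 called in DPY-27(EQ)::GFP, myo-1 and myo-2 were called higher in DPY-27::GFP by 1.48 and 1.40 (adjusted p 0.0208 and 0.0257). In DPY-27(EQ)::GFP myo-1 and myo-2 were at 1.198 and 1.23 (adjusted p 0.0557 and 0.0508 by edgeR), also above wild type in every library. The other pharynx markers did not go with these myosin genes: pha-4, a regulator of pharynx fate, was below wild type in every transgenic library at -0.13 in DPY-27(EQ)::GFP and -0.18 in DPY-27::GFP (adjusted p 0.489 and 0.320), and ceh-22 was at 0.18 and 0.089 with overlapping groups (adjusted p 0.408 and 0.711).

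DPY-27::GFP replicate 2, with the highest pept-1, ifb-2 and act-5 of its strain, also had its highest muscle and pharynx sums. Epidermis markers, by contrast, summed to 741 to 805, 662 to 814 and 772 to 868 CPM in the same strains with 0 of 4 called. Neuron markers summed to 259 to 276, 238 to 324 and 335 to 349 CPM, and unc-104 rose in DPY-27::GFP by 0.70 (adjusted p 0.0276). In DPY-27(EQ)::GFP unc-104 was at 0.57 (adjusted p 0.0692 by edgeR), also above wild type in every library. unc-119 averaged 10.6 CPM in DPY-27(EQ)::GFP, 10.1 CPM in DPY-27::GFP and 92.3 CPM in wild type, log2 fold changes of -3.13 (adjusted p 1.8e-07) and -3.18 (adjusted p 2.3e-07). This was by far the largest difference of the 4 neuron markers, and its cause was not tested. Both transgenic strains carry an insertion that wild type lacks, so strain construction and the expressed protein cannot be told apart for unc-119. In the same order, rab-3 was at 0.78 and 0.85 (adjusted p 0.0930 and 0.0602) and snb-1 at -0.34 and -0.37 (adjusted p 0.0961 and 0.0669). In each strain 2 were higher and 2 lower, so the sum does not stand for neuron genes as a set. The part of other tissues in the gut gene values was not tested.

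DPY-27(EQ)::GFP replicate 3 shares its library name prefix with wild type, which gives a comparison within that prefix, though of 1 library. Rows naming no gene held 21.2% of its reads, against 55.2% to 58.2% in wild type and 12.6% to 13.5% in the SEA libraries. This share sets wild type apart from every transgenic library, and neither the shared prefix nor adding prefix to the fit removes that. DPY-27(EQ)::GFP replicate 3 was above all wild-type libraries for elt-2, ges-1, ifb-2, act-5, pept-1 and erm-1, below them for end-1 and inside their range for end-3 and elt-7. Against the wild-type mean its log2 CPM differed by 0.82 for pept-1, 0.76 for ifb-2, 0.56 for act-5 and -0.90 for end-1. Within the other prefix, the mean of DPY-27(EQ)::GFP replicates 1 and 2 differed from that of DPY-27::GFP by -0.25 for end-1, -0.22 for end-3 and 0.21 for ges-1, with the other genes between -0.071 and 0.15. All DPY-27::GFP libraries have one prefix and all wild-type libraries the other, so for that comparison strain and prefix cannot be told apart except through DPY-27(EQ)::GFP replicate 3. With library name prefix in the fit, 0 of the 9 genes were called in either strain. The log2 fold changes of the gut genes in that fit were 0.30 to 0.82 in DPY-27(EQ)::GFP and 0.12 to 0.83 in DPY-27::GFP.

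The deposited TPM values put most of the genes higher in the transgenic strains, relative to wild type, than CPM did. On this scale the median of all genes was itself shifted, by 0.21 in DPY-27(EQ)::GFP and 0.24 in DPY-27::GFP on log2(TPM + 1), so changes are read against that. The ratio of mean TPM to wild type was 1.38 and 1.51 for elt-2, where CPM gave 1.16 and 1.198, and 1.54 and 1.56 for act-5, where CPM gave 1.29 and 1.26. For elt-7 both scales gave 0.96 in DPY-27(EQ)::GFP, and 0.90 (TPM) and 0.88 (CPM) in DPY-27::GFP. The difference between the scales thus varied from gene to gene, from -0.013 to 0.34 in log2 units. end-1 stayed lower on the TPM scale, at 0.55 and 0.70 of wild type, and pept-1 stayed higher, at 1.796 and 1.66 times wild type.

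Finally, the genes whose pattern over the 9 libraries was closest to that of 3 of the members were identified by the mean absolute difference in log2 CPM, after centring each gene on its own mean. Closest to end-1 were pigv-1, F12E12.1 and T05B9.1, at 0.069 to 0.079 against a median of 0.53 over all other tested genes, while end-3 came 364th at 0.23 and pept-1, the most distant member, 11230th. Closest to elt-2 were uncp-18, etc-1 and F44G4.1, at 0.030 to 0.037 against a median of 0.27, with erm-1 660th among all genes and the nearest member. Closest to act-5 were H34I24.2, lec-2 and C18B2.5, at 0.042 to 0.065 against a median of 0.37, and ifb-2 and pept-1 came 328th and 384th. These places are a description over 9 libraries that differ in strain, depth and stage index alike.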

How the data were processed

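The authors deposited raw counts of reads per gene for each library (submitters' notes: CASAVA 1.8, HTSeq 0.6.1p1, Cufflinks 2.2.0, DESeq2) and, beside gene positions, the TPM of every library. The mRNA-seq methods, written for another strain, name alignment to WS220 with Tophat. The strand option of counting is not given in the sources used here. The deposited comparison tables hold the authors' mean signal, log2 fold changes, test scores, p-values and adjusted p-values, and were not used. Rows naming no gene were kept out of library sizes.

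Counts were filtered with filterByExpr, scaled by TMM and tested in edgeR 4.0.16 (R 4.3.3; limma 3.58.1 for TPM) by the quasi-likelihood method, 1 fit holding all 9 libraries, with Benjamini-Hochberg adjustment over 12643 genes and calls at an adjusted p under 0.05. Log2 CPM used a prior count of 2. Of the genes, 19899 (97.6%) were matched to a symbol or identifier. TPM rows with shared names (4) were left out. Figures were drawn with matplotlib 3.10.9.

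The 9 members and all lists were chosen with earlier results of these data known. Named genes are the members, up to 3 called genes per list and comparison with the smallest adjusted p whose groups do not overlap, and the 3 genes most like end-1, elt-2 and act-5. Other named genes (ifc-2, glo-1, glo-3, lit-1, pha-4, ceh-22, unc-112, skn-1, pop-1, med-1, med-2, hlh-1, rab-3, snb-1, mtl-1, mtl-2, spl-1, ftn-1, cdf-2, and ifd-1 in DPY-27::GFP) were added after their values were seen. So were the values of unc-54, unc-15, myo-1, myo-2 and unc-104 in DPY-27(EQ)::GFP. Alternatives were DESeq2 1.42.0, upper quartile scaling, other filters, fewer strains, a replicate block, library name prefix, limma on TPM, and leaving out each library.

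In DPY-27::GFP against wild type, same-numbered libraries deviated together (correlations of 0.10, 0.42 and 0.45), which is the only ground for pairing them; the other comparisons gave correlations of -0.48 to 0.023. Each of the 9 pairs of libraries within a strain differed beyond the sampling noise of its counts. Counting error alone does not cover the spread between libraries.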

Additional observations from a re-analysis of the deposited data

How the results depend on the processing

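Against wild type, the number of the 9 genes called in DPY-27(EQ)::GFP (1 as reported) was 3 with DESeq2 and with only the 2 strains compared, 0 with library name prefix in the fit, and 0 to 0 with 1 library left out. In DPY-27::GFP (0 as reported) it was 2 with DESeq2 and with no filter on low counts, 1 with limma on log2(TPM + 1) and on log2(TPM + 0.1), and 0 to 3 with 1 library left out. Of the 36 other gut and endoderm genes, 31 to 36 were tested, depending on the setting. In DPY-27(EQ)::GFP 14 of 33 were called with only the 2 strains compared (13 higher and 1 lower), 1 with library name prefix and 0 to 2 with 1 library left out (6 as reported). In DPY-27::GFP 2, 0 and 1 to 12 were called (7 as reported). The share of all tested genes called under these settings is not given here, so the counts cannot be set against it. With a replicate block the counts were 1 and 6 in DPY-27(EQ)::GFP and 0 and 6 in DPY-27::GFP, so it changed no count by over 1.5 times. Between the transgenic strains 0 were called under every alternative run.

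Signs turned for end-3 in DPY-27::GFP with library name prefix (0.062), for elt-7 in DPY-27(EQ)::GFP with upper quartile scaling (0.030), with library name prefix (0.034) and with 1 library left out (-0.098 to 0.020). Between the transgenic strains, where the main values were near 0, end-3 turned with library name prefix (-0.18), log2(TPM + 1) (-0.056) and log2(TPM + 0.1) (-0.098), act-5 with the same (-0.082, -0.00050 and -0.00047), erm-1 with log2(TPM + 1) (-5.7e-05) and log2(TPM + 0.1) (-1.4e-05), and ifb-2 with the replicate block (0.018). With 1 library left out those values ran from -0.57 to 0.14 for end-1, -0.18 to 0.48 for end-3, -0.13 to 0.037 for elt-2, -0.21 to 0.26 for ifb-2, -0.15 to 0.31 for act-5, -0.013 to 0.40 for pept-1 and -0.013 to 0.12 for erm-1. The specification score on log2(TPM + 1) was -4.05 in DPY-27(EQ)::GFP, -3.84 in DPY-27::GFP and -2.86 in wild type. The causes of these changes were not tested. Depth limits end-3, with 7 to 68 reads, most.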
